A study of Mus musculus with 2 samples.

Results

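The 9 genes described here encode the insulin-like growth factor (IGF) ligands Igf1 and Igf2, the type 1 receptor Igf1r, and the IGF-binding proteins Igfbp2, Igfbp3, Igfbp4, Igfbp5, Igfbp6 and Igfbp7. They were chosen by gene symbol and make up 9 of the 32285 features in each count matrix. Single cells came from mitral valve leaflets of 12-week-old male mice on the C57BL/6J background, as the methods of the study describe them: WT littermates (Fbn1+/+) and mgR mice, which are homozygous for the hypomorphic mgR allele of Fbn1 in every tissue and make little fibrillin-1. After enzymatic digestion of the leaflets, live cells were sorted and captured with 10x Genomics 3′ v3 chemistry. Each genotype was represented by 1 library, so no difference between WT and mgR below has a replicate check and none was tested. An n of 3 is stated beside this single-cell comparison without saying what it counts, so how many animals went into a library is not known here.

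IGF1 and IGF2 are secreted growth factors that act on the type 1 IGF receptor, a tyrosine kinase that signals through insulin receptor substrates, PI3K, Akt and mTOR. Binding proteins hold the ligands in the circulation and in the extracellular matrix, and proteases such as those of the pappalysin family release them. In connective tissue the ligand comes from the circulation and also from local mesenchymal cells and macrophages, and several binding proteins attach to matrix.

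After filtering, 875 WT cells with a median of 5033 unique molecular identifiers (UMIs) and 3438 mgR cells with a median of 7370 UMIs remained. Cells were assigned by the UMIs of a few marker genes: fibroblasts (Col1a2, Col3a1 and Dcn; 322 WT and 877 mgR cells), macrophages (C1qa, C1qb and C1qc; 224 and 1531 cells), endothelium (Pecam1 and Cdh5; 29 and 147 cells) and T cells (Cd3d, Cd3e and Cd3g; 90 and 148 cells), the last as a reference that should lack the binding proteins. The 6 fibroblast markers summed to 23626 and 24775 UMIs per 1000000 UMIs of the class (CPM) in fibroblasts and to 27.7 and 33.9 CPM in macrophages, and the 7 macrophage markers to 15524 and 19145 CPM in macrophages and to 27.8 and 66.8 CPM in fibroblasts. A further 33 WT cells (3.77%) and 361 mgR cells (10.5%) met more than 1 rule and were left out of all classes, mostly cells that met the fibroblast and the endothelium rule (28 and 301 cells). Fbn1, the targeted gene, had 171.1 CPM in WT and 136.0 CPM in mgR fibroblasts, a ratio of 0.795 (95% interval 0.694 to 0.912). The paper describes Fbn1 mRNA as severely reduced in homozygous mgR mice, a larger decrease than this ratio. The reason for the gap was not tested. The methods state that only males were compared, yet both libraries held cells with UMIs of Xist and of none of 4 Y-linked genes (Xist cells; 28.1% in WT, 60.8% in mgR) and cells with the reverse (Y cells; 38.5% and 21.1%). The 2 libraries shared 2 cell barcodes. The mix of Xist and Y cells therefore differed along with genotype, and mix and genotype cannot be told apart for cells as a whole, so values within each kind of cell are given beside the results. All intervals are at 95%, come from counts and leave out any variation between animals or libraries. Those of levels and ratios take each UMI as independent, so they also leave out variation between cells. They are too narrow where a few cells hold most UMIs of a gene, and statements about counting error share this limit.

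The genes lie on 6 chromosomes of GRCm38, the mm10 build. Igf1 (ENSMUSG00000020053) is at chr10:87858265-87937042 on the plus strand, Igf2 (ENSMUSG00000048583) at chr7:142650766-142666816 on the minus strand and Igf1r (ENSMUSG00000005533) at chr7:67952827-68233668 on the plus strand. Igfbp2 (ENSMUSG00000039323, chr1:72824503-72852474, plus) and Igfbp5 (ENSMUSG00000026185, chr1:72857932-72874884, minus) are neighbours that end 5457 bases apart. Igfbp3 (ENSMUSG00000020427, chr11:7206086-7213923, minus) lies next to Igfbp1 at a distance of 3539 bases. Igfbp4 (ENSMUSG00000017493) is at chr11:99041244-99054392 on the plus strand, Igfbp6 (ENSMUSG00000023046) at chr15:102144362-102149511 on the plus strand and Igfbp7 (ENSMUSG00000036256) at chr5:77349240-77408041 on the minus strand. All 9 are annotated as protein coding. Gm49394 and Mir483 overlap Igf2 on the same strand, which makes the Igf2 count uncertain. Igfbp7 is overlapped on the other strand by Polr2b, which had 134 and 764 UMIs in all kept cells against 6525 and 26602 for Igfbp7.

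The 250 bases before the annotated start are shown for the ligand and for 2 binding proteins with different cell distributions: Igf1, found in fibroblasts and macrophages, Igfbp3, found almost wholly in fibroblasts, and Igfbp4, shared by fibroblasts and a macrophage type. The sequences are from RefSeq (GRCm38.p6, 9 of 9 genes matched), run 5′ to 3′ on the strand of the gene, and carry each CG dinucleotide and the TATAAA motif in capitals. They lie at chr10:87860861-87861110 (plus strand), chr11:7213924-7214173 (minus strand) and chr11:99040994-99041243 (plus strand), and the Igf1 window, set by the RefSeq start, lies inside the gene as GENCODE M21 draws it.
Igf1: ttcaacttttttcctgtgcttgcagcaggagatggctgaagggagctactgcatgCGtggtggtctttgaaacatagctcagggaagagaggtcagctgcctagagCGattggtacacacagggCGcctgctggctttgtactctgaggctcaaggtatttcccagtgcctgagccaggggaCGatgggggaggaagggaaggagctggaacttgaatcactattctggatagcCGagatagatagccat
Igfbp3: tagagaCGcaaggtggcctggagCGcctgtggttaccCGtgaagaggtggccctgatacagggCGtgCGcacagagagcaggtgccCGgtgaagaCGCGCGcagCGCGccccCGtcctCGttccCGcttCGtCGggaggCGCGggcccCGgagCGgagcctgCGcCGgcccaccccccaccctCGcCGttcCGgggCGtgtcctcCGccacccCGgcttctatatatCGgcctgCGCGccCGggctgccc
Igfbp4: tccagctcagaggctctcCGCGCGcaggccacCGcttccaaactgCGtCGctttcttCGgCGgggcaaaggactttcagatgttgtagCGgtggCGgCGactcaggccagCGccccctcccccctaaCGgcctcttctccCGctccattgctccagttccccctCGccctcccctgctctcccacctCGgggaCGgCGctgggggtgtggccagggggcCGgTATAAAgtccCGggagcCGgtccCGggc
The Igf1 window held 5 CG dinucleotides, the Igfbp3 window 32 and the Igfbp4 window 22, against a median of 6 over 32851 promoter windows of equal length. The letters TATAAA, searched on both strands and found in 12.4% of all windows, occurred in the Igfbp4 window 28 bases before the start. The GC box letters GGGCGG, present in 32.7% of windows, were in none of these 3, and CCAAT, present in 33.8%, was in the Igf1 window alone. A 3′ assay does not show which start site was used.

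Igf1 was expressed by fibroblasts and macrophages, and the share that each contributed differed between the libraries. In fibroblasts Igf1 had 340.5 CPM (313.2 to 369.5) in WT and 241.5 CPM (229.4 to 254.1) in mgR. In macrophages its level was 146.1 CPM (127.0 to 167.2) in WT and 249.0 CPM (240.6 to 257.6) in mgR. WT thus had its highest Igf1 level in fibroblasts, beyond counting error, whereas the fibroblast and macrophage levels in mgR were within counting error of each other. Endothelium held 7 WT and 17 mgR UMIs of Igf1, and T cells 0 of 90 WT cells, which allows a level of up to 7.47 CPM, and 6 mgR UMIs (7.04 CPM). Counted over all kept cells, fibroblasts supplied 68.6% of WT and 28.7% of mgR Igf1 UMIs, and macrophages 25.2% and 63.9%. These shares also depend on how many cells of each class were recovered. Fibroblasts fell from 36.8% of the kept cells in WT to 25.5% in mgR. Macrophages rose from 25.6% to 44.5%. The paper advises caution with such proportions, because cell yield may vary with how each cell type sits in the matrix. How much of the difference in Igf1 source came from the cell mix was not tested. The Igf1 level of all kept cells together was 183.1 CPM in WT and 194.8 CPM in mgR, a ratio of 1.06 (0.989 to 1.15).

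**Figure D1:**
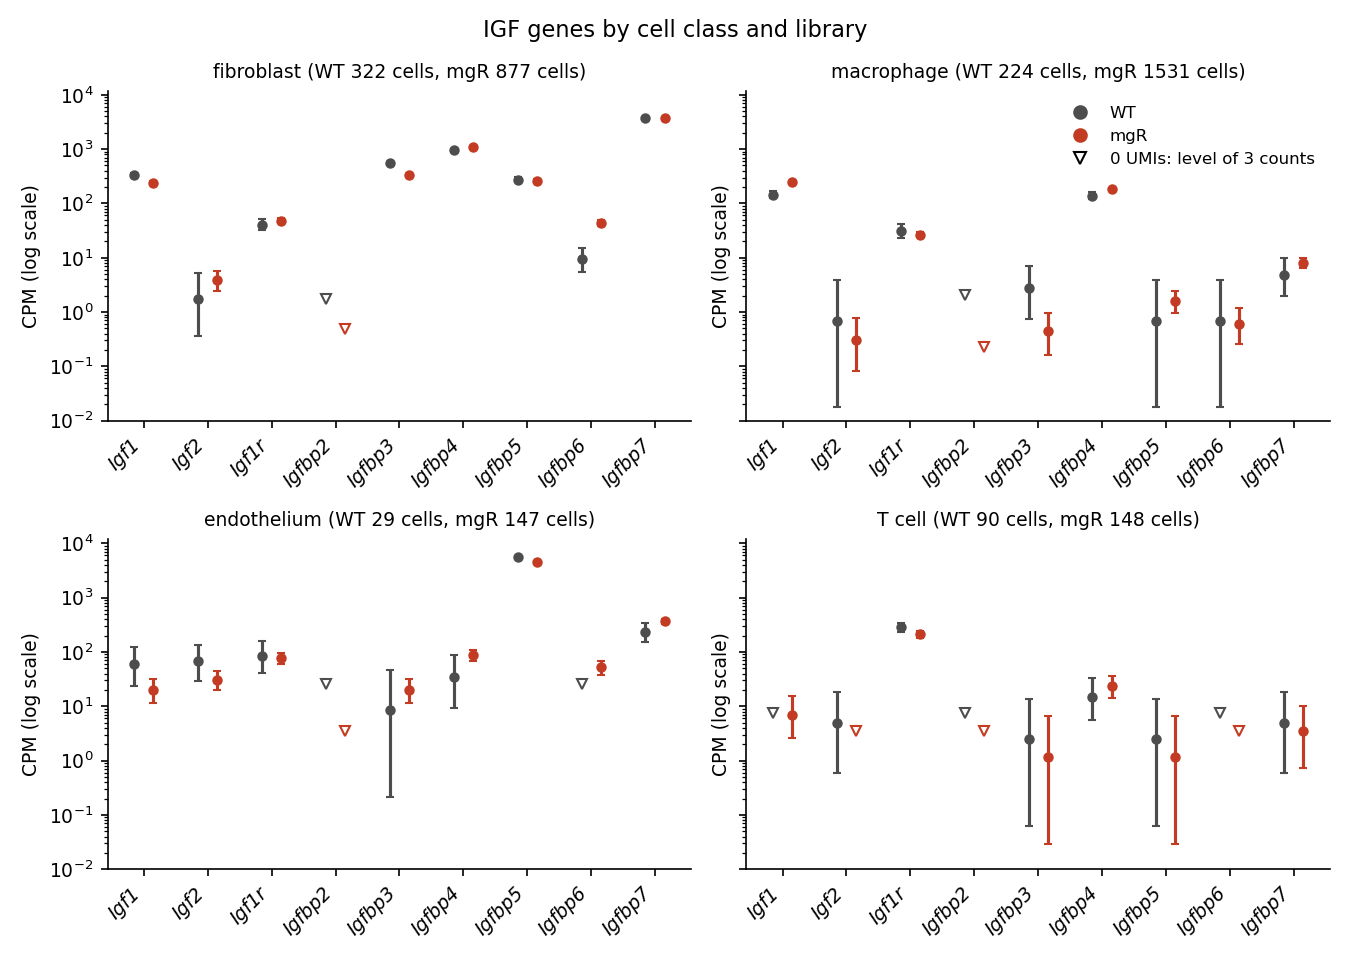
Level of each IGF gene in CPM (log axis) in 4 cell classes, in the WT (grey) and mgR (red) library; points are summed UMIs, bars 95% Poisson intervals, and open triangles mark 0 UMIs at the level of 3 counts. Igfbp7 stands highest in fibroblasts at 3683 and 3814 CPM, Igfbp5 in endothelium at 5511 and 4606 CPM, and Igf1r in T cells at 283.9 and 212.3 CPM.

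The mgR to WT ratio of Igf1 was 0.709 (0.644 to 0.782) in fibroblasts and 1.70 (1.48 to 1.97) in macrophages. A size of 1.5-fold in either direction was used to sort genes with at least 100 UMIs in a class over both libraries. By that measure Igf1 was within the limit in fibroblasts and past it in macrophages, where it remained past it in all 11 alternatives of the processing. The opposite directions in the 2 classes were not tested against each other. At equal depth, with every cell thinned to 2000 UMIs, 24.8% (19.2 to 31.1) of WT and 34.6% (32.2 to 37.1) of mgR macrophages held an Igf1 UMI, and without thinning 43.3% and 65.4%. These were intervals that did not overlap, and the median depth of macrophages was 6013 UMIs in WT and 8292 UMIs in mgR. For fibroblasts the thinned shares were 37.7% (32.1 to 43.5) and 29.1% (26.1 to 32.3), and unthinned 59.0% and 53.0%. T cells, at 0 of 84 and 2.05% of cells after thinning, give the background.

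Within Xist cells the Igf1 ratio was 0.631 (0.536 to 0.745) in fibroblasts and 1.65 (1.31 to 2.11) in macrophages. Within Y cells it was 1.03 (0.873 to 1.22) in fibroblasts and 1.53 (1.22 to 1.93) in macrophages. The macrophage ratio was thus above 1 in both kinds of cell, while the fibroblast ratio below 1 was present in Xist cells and not in Y cells, a contrast between the kinds that was not tested. In WT fibroblasts the Igf1 level itself was 380.0 CPM in Xist cells and 272.2 CPM in Y cells, and in mgR fibroblasts 239.7 and 280.9 CPM.

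Fibroblasts were divided by the larger of 2 marker sums into an Fmod/Comp-type (Fmod and Comp, genes of dense collagenous matrix) and a Ptx3/Smoc2-type (Ptx3 and Smoc2), with ties undecided. The Igf1 levels of the types were within counting error of each other, with a ratio of 1.05 (0.857 to 1.29) in WT and 0.933 (0.828 to 1.05) in mgR. It was lower in mgR than in WT in each of the 3 groups. The Fmod/Comp-type had 337.0 CPM in WT and 218.8 CPM in mgR, a ratio of 0.649 (0.549 to 0.771). For the Ptx3/Smoc2-type the ratio was 0.732 (0.622 to 0.864), and for undecided cells 0.816 (0.683 to 0.977).

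Macrophages were divided by the larger of 2 marker sums into a Lyve1-type (Lyve1, Folr2 and Cd163, genes of resident macrophages) and a Cx3cr1-type (Cx3cr1 and Cd72), with ties undecided. The Lyve1-type made up 39.3% (32.8 to 46.0) of WT and 64.1% (61.7 to 66.5) of mgR macrophages, and the Cx3cr1-type 46.9% and 28.3%. Igf1 was higher in the Lyve1-type than in the Cx3cr1-type in both libraries, by a ratio of 2.96 (2.14 to 4.13) in WT and 1.68 (1.54 to 1.83) in mgR. Of the macrophage Igf1 UMIs, the Lyve1-type held 59.7% in WT and 77.7% in mgR.

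Between the libraries, Igf1 in the Lyve1-type was 225.3 CPM in WT and 297.3 CPM in mgR, a ratio of 1.32 (1.10 to 1.59). At equal depth the share of Lyve1-type cells with an Igf1 UMI was 41.9% (31.3 to 53.0) and 42.3% (39.1 to 45.5). The Cx3cr1-type had 76.2 CPM in WT and 177.2 CPM in mgR, a ratio of 2.32 (1.76 to 3.12), with thinned shares of 13.3% (7.49 to 21.4) and 22.8% (18.9 to 27.1). The Lyve1-type ratio was 0.920 (0.701 to 1.23) in Xist cells and 1.54 (1.16 to 2.09) in Y cells, and the Cx3cr1-type ratio 2.70 (1.73 to 4.45) and 1.34 (0.810 to 2.30). Undecided macrophages, 31 WT and 115 mgR cells, had 183.0 and 83.7 CPM, so that their ratio of 0.458 (0.296 to 0.724) lay in the other direction. In the WT library 10 cells held all 30 UMIs of that last group.

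**Figure D2:**
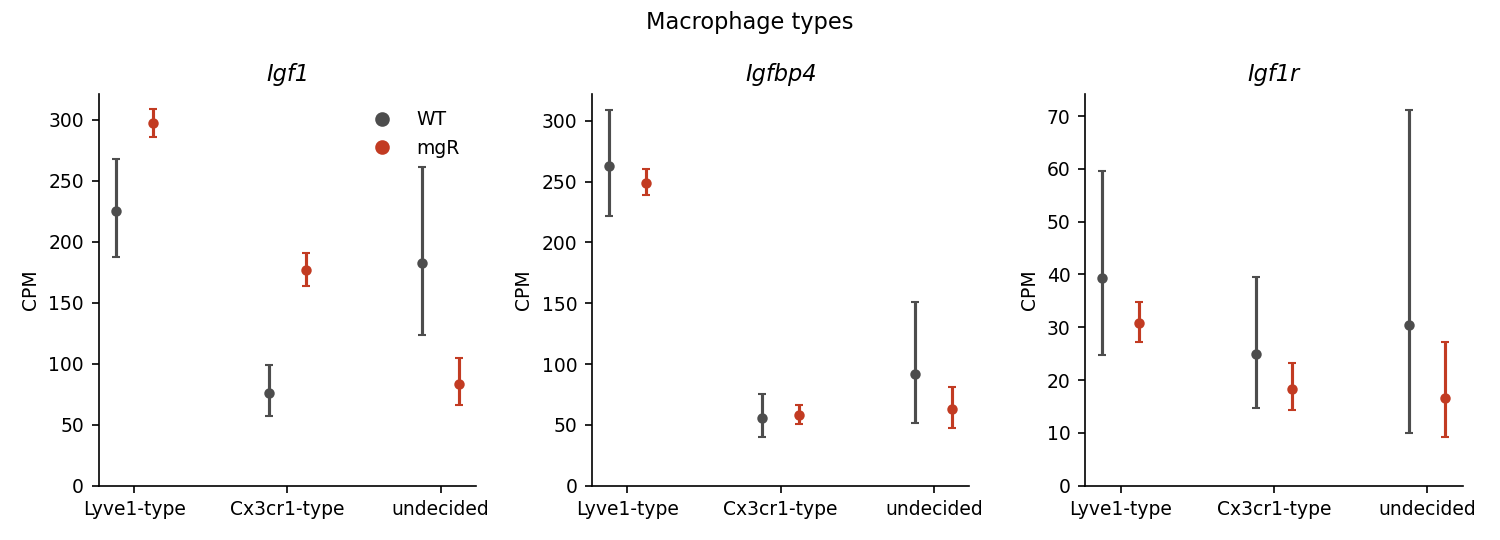
Igf1, Igfbp4 and Igf1r in CPM in Lyve1-type, Cx3cr1-type and undecided macrophages of the WT (grey) and mgR (red) library, with 95% Poisson intervals. Igfbp4 is at 262.9 and 249.3 CPM in the Lyve1-type and at 55.4 and 58.1 CPM in the Cx3cr1-type, while Igf1 in the Cx3cr1-type is 76.2 CPM in WT and 177.2 CPM in mgR.

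Igf2, the imprinted growth factor of fetal tissues, was rarely detected in the adult valve. It had 3 WT and 24 mgR UMIs in fibroblasts, 1 and 4 in macrophages, and 8 and 26 in endothelium. By level endothelium was the highest of the classes, at 68.0 CPM in WT and 30.6 CPM in mgR. Fibroblasts had 1.78 and 3.89 CPM. Most Igf2 UMIs lay in the cells that met the fibroblast and the endothelium rule, with 69 UMIs in 7 of 28 WT cells and 100 UMIs in 25 of 301 mgR cells. This corresponded to 427.5 CPM (332.6 to 541.0) and 49.2 CPM (40.0 to 59.8). Since so few cells carried them, the difference rests on single cells.

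Those cells also carried other members of the set. They had 10861 and 8249 CPM of the 6 fibroblast markers and 2484 and 2667 CPM of the 6 endothelium markers, the latter as high as in endothelium (2424 and 2339 CPM). Their Igfbp5 level was 1183 CPM in WT and 1334 CPM in mgR, and their Igfbp7 level 1419 and 959.2 CPM, between those of fibroblasts and endothelium. Scrublet, which looks for doublets, marked 0 of the WT and 1.66% of the mgR cells of this kind. Whether they are doublets or cells with both programs was not tested.

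Igf1r, the receptor, was most highly expressed in T cells and was low in the cells that expressed the ligand. T cells had 283.9 CPM (234.2 to 341.0) in WT and 212.3 CPM (182.5 to 245.5) in mgR. In fibroblasts the level was 40.9 CPM in WT and 48.1 CPM in mgR, and in macrophages 31.2 and 26.3 CPM. Endothelium lay between, with 85.0 CPM (40.8 to 156.4) from 10 WT UMIs and 76.5 CPM (59.1 to 97.6) from 65 mgR UMIs. The T cell level was 6.95-fold (5.11 to 9.51) that of fibroblasts in WT and 4.41-fold (3.64 to 5.32) in mgR, and 3.34-fold and 2.77-fold that of endothelium. After thinning, 45.2% (34.3 to 56.5) of WT and 30.8% (23.5 to 39.0) of mgR T cells held an Igf1r UMI, against 7.19% and 9.12% of fibroblasts. Endothelium did not differ from fibroblasts beyond counting error in WT but did in mgR.

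Between the libraries, the Igf1r ratio was 1.18 (0.904 to 1.55) in fibroblasts, 0.845 (0.618 to 1.18) in macrophages and 0.748 (0.588 to 0.954) in T cells. The first 2 intervals included 1, so that no difference was detectable at this depth. In Xist fibroblasts the ratio was 1.98 (1.11 to 3.90), from 12 WT UMIs, and in Y fibroblasts 0.926 (0.613 to 1.41). Lyve1-type macrophages exceeded the Cx3cr1-type by a ratio of 1.67 (1.28 to 2.22) in mgR and 1.58 (0.807 to 3.12) in WT, the latter within counting error. Within endothelium, Prox1/Emcn-type cells of the mgR library (larger sum of Prox1, Vwf and Emcn) had 116.6 CPM against 57.3 CPM in the Wnt9b-type (Wnt9b, Nts and Dkk2), a ratio of 2.04 (1.19 to 3.52).

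Igfbp2, a binding protein of liver and of the developing nervous system, was not detected in the 4 classes of either library. Its only UMI lay in 1 mgR cell that met more than 1 rule. For fibroblasts the limit was 1.78 CPM in WT and 0.486 CPM in mgR, and for macrophages 2.08 and 0.225 CPM.

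The other binding proteins divided the valve by cell type. The 6 binding proteins together reached 5472 CPM in WT and 5545 CPM in mgR fibroblasts, 5783 and 5131 CPM in endothelium, 148.8 and 193.4 CPM in macrophages, and 24.9 and 29.3 CPM in T cells. In a 3′ assay each captured molecule gives 1 UMI, so levels of different genes are compared as UMIs without division by length. Of the binding protein UMIs of fibroblasts, Igfbp7 made up 67.3% in WT and 68.8% in mgR and Igfbp4 17.5% and 19.7%. In endothelium Igfbp5 made up 95.3% and 89.8%, and in macrophages Igfbp4 94.0% and 94.5%. After thinning, 99.7% of WT and 99.1% of mgR fibroblasts held a UMI of at least 1 binding protein, against 22.5% and 29.5% of macrophages and 2.38% and 5.48% of T cells.

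Igfbp7, a secreted matrix-associated protein that binds IGFs weakly, was among the most abundant transcripts of valve fibroblasts. Fibroblasts had 3683 CPM (3592 to 3776) in WT and 3814 CPM (3765 to 3863) in mgR, and only 12 of the genes detected there had more UMIs in each library. A UMI was present in 319 of 322 WT and 871 of 877 mgR fibroblasts. The ratio of 1.04 (1.01 to 1.07) was 1.03 (0.980 to 1.08) in Xist cells and 1.04 (0.997 to 1.09) in Y cells. In Fmod/Comp-type fibroblasts it had 3940 and 3784 CPM, and in Ptx3/Smoc2-type fibroblasts 3979 and 4099 CPM.

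Endothelium had 229.6 CPM (151.3 to 334.1) of Igfbp7 in WT, from 27 UMIs in 13 of 29 cells, and 366.3 CPM (326.7 to 409.3) in mgR. The ratio was 1.59 (1.08 to 2.46), and the thinned shares of 38.1% (18.1 to 61.6) and 42.8% (34.4 to 51.5) overlapped. It was in the same direction in Xist cells (3.01, 1.36 to 8.30) and in Y cells (3.17, 1.02 to 15.9), from 6 and 3 WT UMIs. Once the cells of the fibroblast and endothelium rules were counted as endothelium, an alternative chosen after seeing the data, the log2 ratio went from 0.67 to -0.23. In macrophages Igfbp7 had 7 WT and 107 mgR UMIs, at 4.85 and 8.02 CPM, near the 4.98 and 3.52 CPM of T cells, and was read as background.

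Igfbp5, a matrix-binding member, was the leading binding protein of endothelium and was carried by a part of its cells. It had 5511 CPM (5095 to 5952) in WT and 4606 CPM (4463 to 4752) in mgR endothelium, where 5 genes in WT and 7 in mgR had more UMIs. The cells with a UMI numbered 15 of 29 in WT and 91 of 147 in mgR, and 10 cells held 98.5% of the WT and 42.5% of the mgR UMIs. The ratio was 0.836 (0.769 to 0.910), with a mean of per-cell CPM that gave a log2 ratio of 0.13 in place of -0.26, so its direction depended on how cells were weighted. Without the 10 highest cells of each library, out of 29 and 147, the log2 ratio was 4.15. The ratio was 0.751 (0.670 to 0.845) in Xist cells and 0.442 (0.376 to 0.522) in the 7 WT and 25 mgR Y cells.

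Both endothelial types expressed Igfbp5. Wnt9b-type cells had 6560 CPM in WT and 6196 CPM in mgR, a ratio of 0.945 (0.853 to 1.05). Prox1/Emcn-type cells had 5350 CPM from 13 WT cells and 2343 CPM from 58 mgR cells. The markers behind that type differed between the libraries, since Vwf had 0 UMIs in the WT cells and 47 UMIs in 27 of the mgR cells, so the 2 levels are given side by side and no ratio is drawn. In mgR the Wnt9b-type exceeded the Prox1/Emcn-type by 2.64-fold, and 79.7% of its cells against 41.4% held a UMI. With Igfbp4 the order was the opposite, at 208.5 CPM (158.7 to 268.9) in the mgR Prox1/Emcn-type and 21.2 CPM (10.2 to 39.0) in the mgR Wnt9b-type, while the WT library had 3 and 0 Igfbp4 UMIs there.

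In fibroblasts Igfbp5 was lower and was found in a minority of cells. The level was 274.2 CPM in WT and 263.9 CPM in mgR, a ratio of 0.963 (0.868 to 1.07), with a UMI in 25.5% and 27.9% of cells. Macrophages had 1 and 21 UMIs. The undecided fibroblasts had the highest level, 402.9 CPM in WT and 544.4 CPM in mgR. The Fmod/Comp-type had 216.8 and 148.1 CPM and the Ptx3/Smoc2-type 221.0 and 240.9 CPM. Few undecided cells held a UMI of any type marker, and Comp, the most frequent, was in 5 of 109 WT and 18 of 220 mgR cells. Mural markers summed to 448.3 and 479.2 CPM in undecided fibroblasts and to between 324.8 and 453.0 CPM in the other 2 types, and their part in the Igfbp5 level was not tested.

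**Figure D3:**
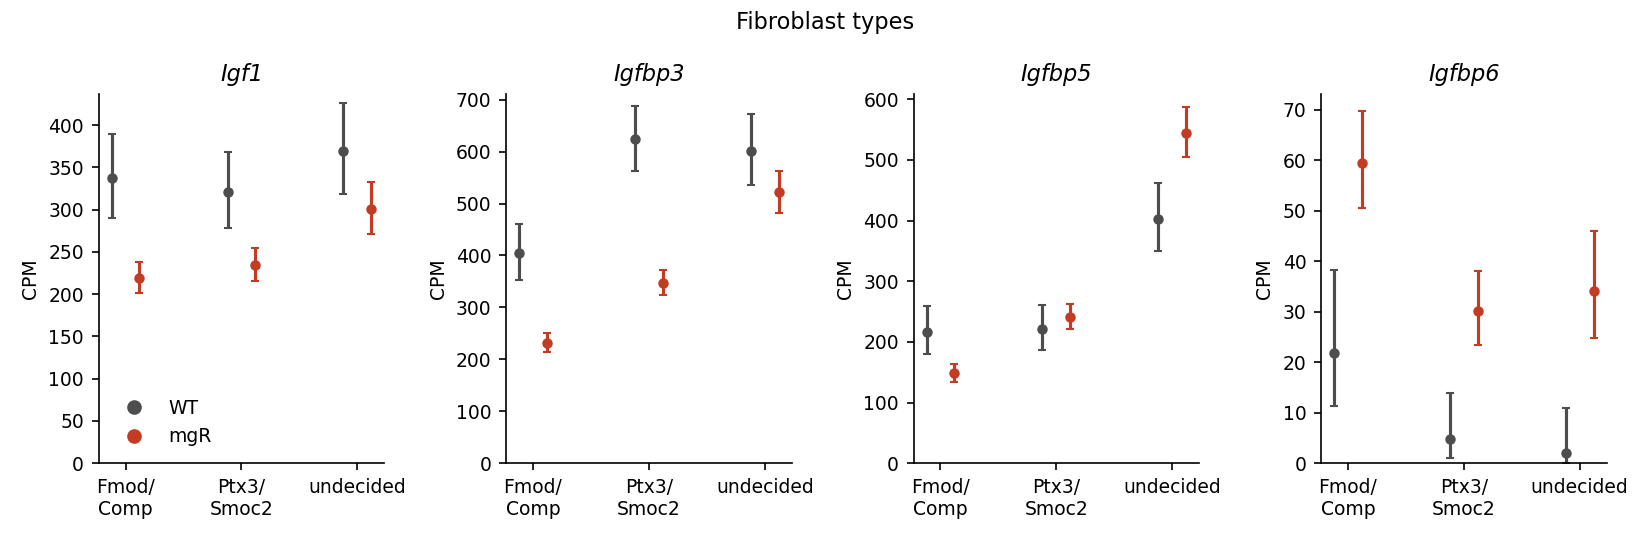
Igf1, Igfbp3, Igfbp5 and Igfbp6 in CPM in Fmod/Comp-type, Ptx3/Smoc2-type and undecided fibroblasts of the WT (grey) and mgR (red) library, with 95% Poisson intervals. Igfbp3 is lower in mgR in the 2 named types (232.0 against 404.4 CPM, and 347.6 against 623.5 CPM), and Igfbp5 is highest in undecided cells.

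Igfbp3, the main carrier of IGFs in serum, was almost restricted to fibroblasts, which held 98.5% of its WT and 96.8% of its mgR UMIs. It had 545.4 CPM (510.7 to 581.8) in WT and 334.6 CPM (320.3 to 349.3) in mgR fibroblasts. The ratio of 0.613 (0.567 to 0.664) was past the 1.5-fold limit. The share of fibroblasts with an Igfbp3 UMI, however, was 29.8% (24.9 to 35.1) in WT and 29.3% (26.3 to 32.4) in mgR, and after thinning 25% (20.1 to 30.4) and 20.4% (17.7 to 23.3). A few cells carried much of the count, since 10 cells held 40.0% of the WT and 18.2% of the mgR UMIs, and the highest cell had 64 and 56 UMIs. Without the 10 highest cells of each library the log2 ratio was -0.30 in place of -0.70, which is within the 1.5-fold limit. The ratio was 0.417 (0.370 to 0.471) in Xist cells and 0.712 (0.629 to 0.807) in Y cells.

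**Figure D4:**
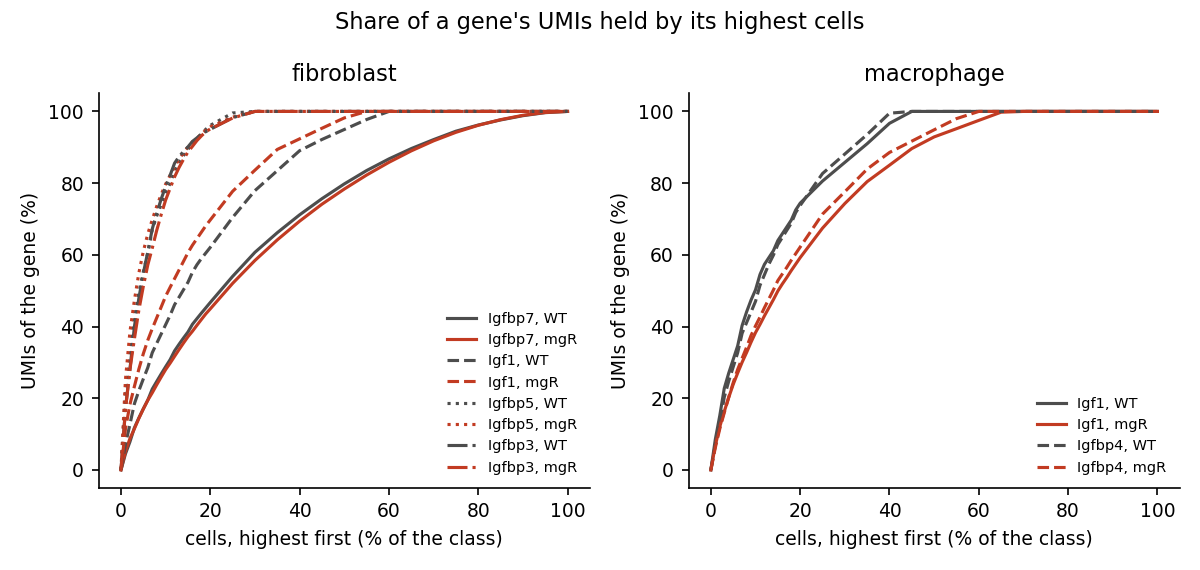
Share of a gene's UMIs (vertical axis, %) held by the cells with most UMIs of that gene (horizontal axis, % of the class), for 4 genes in fibroblasts and 2 in macrophages, WT grey and mgR red. In fibroblasts the highest 20% of cells hold 95.1% of mgR Igfbp3 UMIs but 44.9% of mgR Igfbp7 UMIs.

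Earlier clustering of these data had Igfbp3 among the leading genes of the Ptx3 and Smoc2 fibroblasts, so its order between the types is a description. Fmod/Comp-type cells had 404.4 CPM in WT and 232.0 CPM in mgR, and Ptx3/Smoc2-type cells 623.5 and 347.6 CPM. The ratio between the types was 0.649 (0.548 to 0.766) in WT and 0.667 (0.599 to 0.743) in mgR, but in mgR Y cells the log2 ratio was 0.16 in place of -0.58. Undecided fibroblasts had 600.4 and 521.3 CPM, with a ratio of mgR to WT of 0.868 (0.757 to 0.998), nearer to 1 than the 0.574 and 0.557 of the 2 types. The Fmod/Comp-type made up 30.1% of WT and 40.5% of mgR fibroblasts.

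Igfbp5 and Igfbp4 were more frequent in mgR fibroblasts that held Igfbp3. Of thinned fibroblasts with an Igfbp3 UMI, 29.1% (22.4 to 36.5) of mgR and 26.0% (16.5 to 37.6) of WT cells also held an Igfbp5 UMI, against 16.2% (13.5 to 19.2) and 16.9% (12.2 to 22.5) of those without. For Igfbp4 the shares were 86.0% (80.0 to 90.9) against 60.0% (56.2 to 63.7) in mgR and 72.6% (60.9 to 82.4) against 60.3% (53.5 to 66.8) in WT. For Igf1 they lay the other way, at 24.4% (18.2 to 31.5) against 30.4% (26.9 to 34.0) in mgR and 26.0% (16.5 to 37.6) against 41.6% (35.0 to 48.4) in WT. In the WT library the intervals overlapped for each of the 3 genes, and in mgR they did so for Igf1. All these shares were taken over the fibroblast types together, and none was computed within a type.

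Igfbp4, which is cleaved by pappalysin to release IGF, was found in both fibroblasts and macrophages, as was Igf1. In fibroblasts it had 959.9 CPM (913.7 to 1007.8) in WT and 1089.8 CPM (1063.9 to 1116.1) in mgR, a ratio of 1.14 (1.08 to 1.199). It was 0.916 (0.833 to 1.01) in Xist cells and 1.44 (1.33 to 1.57) in Y cells. The ratio of mgR to WT was 0.950 (0.868 to 1.04) in the Fmod/Comp-type and 1.38 (1.26 to 1.52) in the Ptx3/Smoc2-type. In macrophages the level was 139.8 CPM (121.2 to 160.5) in WT and 182.7 CPM (175.6 to 190.2) in mgR, a ratio of 1.31 (1.13 to 1.52). The Lyve1-type exceeded the Cx3cr1-type by 4.74-fold (3.32 to 6.91) in WT and 4.29-fold (3.73 to 4.96) in mgR, at 262.9 and 249.3 CPM against 55.4 and 58.1 CPM.

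Within each macrophage type Igfbp4 was close to equal in the libraries. The ratio of mgR to WT was 0.948 (0.802 to 1.13) in the Lyve1-type and 1.05 (0.745 to 1.51) in the Cx3cr1-type, both within counting error, while the share of the Lyve1-type differed as given above. The Lyve1-type supplied 72.8% of WT and 88.7% of mgR macrophage Igfbp4 UMIs. Igfbp4 was more frequent among Igf1-positive macrophages in WT, where 35.2% (22.7 to 49.4) of macrophages with an Igf1 UMI and 15.2% (10.1 to 21.7) of those without held an Igfbp4 UMI after thinning. In mgR these shares were 31.6% (27.6 to 35.8) and 25.9% (23.2 to 28.7), with overlapping intervals. The shares mix the macrophage types, and both genes were higher in the Lyve1-type. None was computed within a type, so a link within cells of 1 type was not tested.

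Igfbp6, a binding protein with preference for IGF2, was rare, and its UMIs came from few cells. Fibroblasts had 16 WT UMIs in 7 cells (9.47 CPM, 5.42 to 15.4) and 267 mgR UMIs in 61 cells (43.3 CPM, 38.2 to 48.8). The ratio was 4.57 (2.76 to 8.11), and 10 cells held 59.2% of the mgR UMIs. In Xist cells it was 1.11 (0.594 to 2.29), from 11 and 103 UMIs, and in Y cells 15 (3.96 to 127.0), from 2 and 54 UMIs. After thinning 0.685% (0.0831 to 2.45) of WT and 3.55% (2.41 to 5.04) of mgR fibroblasts held a UMI, and the intervals overlapped. In mgR the Fmod/Comp-type had 59.5 CPM and the Ptx3/Smoc2-type 30.1 CPM, a ratio of 1.98 (1.48 to 2.66), while the WT types held 12 and 3 UMIs. Endothelium had 0 WT UMIs and 44 mgR UMIs in 8 cells. Against a floor of 3 counts per library the ratio was 2.03 over all endothelial cells, with a lower limit of 1.58. In Xist cells, which held 43 of the 44 UMIs, it was 1.20 with a lower limit of 0.938, so no difference beyond counting error was present there, and the 7 WT and 25 mgR Y cells held none.

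Counted by size, 2 of the 7 members with at least 100 UMIs in fibroblasts were past 1.5-fold between the libraries, Igfbp3 and Igfbp6, against 10.6% of 7447 genes. In macrophages Igf1 and Igfbp7 were past the limit, 2 of 4 members, against 18.4% of 7930 genes, and the Igfbp7 interval of 0.776 to 4.22 included 1. Igfbp6 in fibroblasts and Igfbp7 in macrophages reached 100 UMIs only through the mgR library, where they were higher: at the WT level both libraries together would have held 74.4 and 71.6 UMIs, so the filter itself chose them for being higher in mgR, and they support nothing in the counts. When 100 UMIs were required at the lower of the 2 levels, a filter chosen after seeing the data, Igfbp3 was past the limit in fibroblasts, 1 of 6 members against 8.18% of 7016 genes, and Igf1 in macrophages, 1 of 3 against 14.8% of 7444 genes. In endothelium it was Igfbp7, 1 of 2 members, against 20.2% of 1705 genes by the first filter and 13.9% of 1415 genes by the second. By the second filter the median log2 ratio of the members was -0.0024 in fibroblasts, 0.39 in macrophages and 0.21 in endothelium, beside medians of -0.042, 0.10 and 0.030 over all genes that passed it. With so few members these shares and medians are descriptions. Igf2 and Igfbp2 in fibroblasts, 5 members in macrophages and 7 in endothelium had too few UMIs to be counted. Between the Fmod/Comp-type and the Ptx3/Smoc2-type, 0 of 7 members were past 2-fold in the same direction in both libraries, against 4.28% of 6568 genes. Between the macrophage types Igfbp4 was, 1 of 4 members, against 9.19% of 7762 genes.

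**Figure D5:**
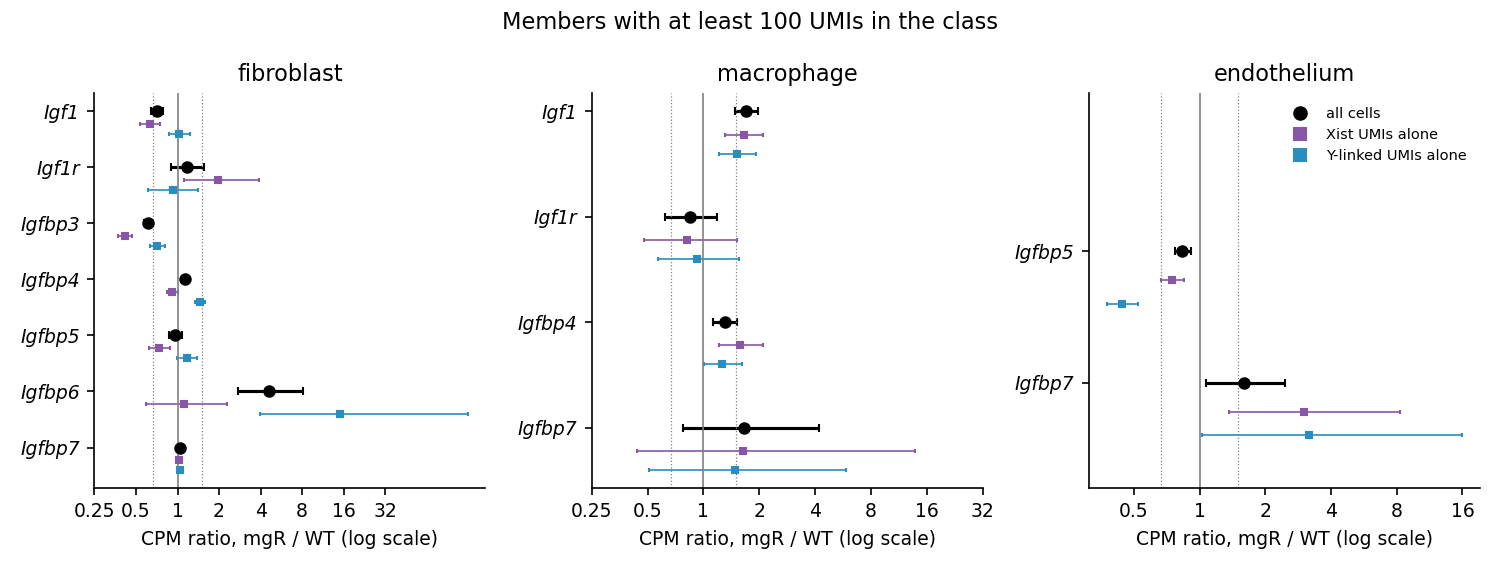
CPM ratio of mgR to WT (log axis) for members with at least 100 UMIs in a class, over all cells of the class (black) and over Xist cells (purple) or Y cells (blue), with 95% intervals; dotted lines mark 1.5-fold. Igf1 is at 0.709 in fibroblasts and 1.70 in macrophages, and Igfbp6 in fibroblasts ranges from 1.11 to 15 between the kinds of cell.

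Other genes of the pathway were taken from a list of 42 receptors, proteases, hormone-axis and signaling genes. In fibroblasts 32 of them had at least 100 UMIs, of which 1 was past 1.5-fold higher in mgR and 1 lower, against the 10.6% of all counted genes. These were Pappa2, a protease that cleaves IGF-binding proteins, with 22.5 CPM in WT and 35.3 CPM in mgR (ratio 1.57, 1.11 to 2.28), and Htra3, a secreted serine protease, with 688.7 and 436.7 CPM (0.634, 0.592 to 0.680). In macrophages 22 were counted, and 3 were past the limit, against 18.4% of all counted genes, all higher in mgR, among them the kinase Pdpk1 (1.57, 1.13 to 2.23) and the mTORC1 regulator Tsc2 (1.95, 1.002 to 4.34), from 39 and 9 WT UMIs. With 100 UMIs required at the lower of the 2 levels, Pdpk1 was the 1 gene past the limit among 20, against 14.8%. Of 6 genes counted in endothelium, Igf2r, the receptor that clears IGF2, was lower in mgR, at 255.1 CPM in WT and 148.4 CPM in mgR (0.582, 0.388 to 0.897), against 20.2% of all counted genes in either direction. With 100 UMIs over both libraries, each share of the list, taken in either direction, was below that of all counted genes. With 100 UMIs required at the lower of the 2 levels, fibroblasts had 2 of 32 list genes past the limit, against 8.18%. In endothelium Igf2r was then 1 of 5 genes, 20.0% against 13.9%. With 5 genes any 1 past the limit gives a share above 13.9%, so this is a description of Igf2r alone. The median log2 ratio of the list was -0.11 in fibroblasts, 0.058 in macrophages and -0.18 in endothelium, beside -0.033, 0.13 and 0.083 over all counted genes.

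The genes whose levels followed each member most closely were sought by Pearson's r of log2(CPM + 10) over 16 points, the 8 groups of cells in each library, among 8709 genes. The points share their libraries and the division into classes, so r mainly reflects the class in which a gene is expressed. Igf1 was followed by Lhfpl2 (r = 0.970) and Sash1 (0.954), Igf1r by Rnf125 (0.958) and Sept1 (0.950), and Igfbp3 by Maob (0.992) and the collagen gene Col6a3 (0.991). Igfbp4 was followed by Smim1 (0.967) and the collectin Colec12 (0.965), and Igfbp5 by Cavin2, a caveolar protein of endothelium (0.993), and Fmo1 (0.991). For Igfbp6 the values were lower, Lefty1 at 0.903 and Lbp at 0.895, and for Igfbp7 they were 0.994 for Lhfp and 0.993 for Thbs2, which encodes the matricellular protein thrombospondin-2. Igf2 and Igfbp2 had too few UMIs for a comparison.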

How the data were processed

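Mitral valve cells were measured in 1 WT and 1 mgR library. The deposited matrices hold counts (UMIs per gene and barcode), which according to the submitters' processing notes were made with Cell Ranger 7.1.0 on mm10, and the treatment of intronic reads is not given in the sources used here. Positions came from GENCODE M21, in which 32158 identifiers matched. Cells with 200 to 5000 genes and at most 10% mitochondrial UMIs were kept, as in the study. Classes required 10 UMIs (fibroblast, macrophage) or 2 UMIs (endothelium, T cell) summed over the genes named. UMIs were summed per class and divided by the class total, since cells are not replicates, and exact Poisson, Clopper-Pearson and conditional binomial intervals were added. A sum of 0 was taken to allow 3 counts. Thinning drew 2000 UMIs per cell and left shallower cells out, which in fibroblasts left 292 and 844 cells and in macrophages 218 and 1507. Doublets were marked with Scrublet (scanpy 1.11.5) and removed only in an alternative. Ratios and intervals were run on simulated class totals drawn as independent counts, which is the model that the intervals assume. That run checks the computation only, since it held no clustering of UMIs in cells. The files came as 1104 and 3802 barcodes with 5381844 and 28215539 UMIs. The 9 members were all named; pathway genes were named when past 1.5-fold with 100 UMIs (1 is not reported here), and for each member the 2 genes of highest r among those with 200 UMIs. Members and lists were chosen with earlier results of these data known. Alternatives changed the filters, thresholds, weights and scale.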

Additional observations from a re-analysis of the deposited data

Results flagged for a closer look

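Igf1 had an mgR to WT CPM ratio of 0.709 in fibroblasts and of 1.70 in macrophages. Both counting intervals excluded 1, and the 2 ratios lay on opposite sides of 1. The difference between the classes was not tested, since each genotype had 1 library. The fibroblast ratio was 1.03 in Y cells. Among macrophages the ratio was 1.32 in the Lyve1-type, 2.32 in the Cx3cr1-type and 0.458 in undecided cells. For the Lyve1-type it was 0.920 (0.701 to 1.23) in Xist cells and 1.54 (1.16 to 2.09) in Y cells. That type made up 39.3% of WT and 64.1% of mgR macrophages, and its part in the macrophage ratio was not tested.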

How the results depend on the processing

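Of 334 values of single members under other settings, 257 moved by less than counting error and 77 by more. The sign changed in 33 of the 334, which belong to 19 of 27 ratios, and in 3 of these the ratio as first computed was past the size limit. The 2 fibroblast members past 1.5-fold became 1 with thinned cells, where Igfbp3 had a log2 ratio of -0.58, and 1 in Y cells, where it had -0.49. In Y cells Igfbp6 was past the limit, from only 2 WT and 54 mgR UMIs. In Xist fibroblasts Igf1 (ratio 0.631), Igf1r (1.98, from 12 WT UMIs) and Igfbp3 (0.417) were past it, and Igfbp6 (1.11) was not. The counts became 1 in fibroblasts and in macrophages with 100 UMIs required at the lower of the 2 levels, chosen after seeing the data. The 2 macrophage members became 1 with thinned cells, with the mean of per-cell CPM and in Y cells, Igf1 remaining past the limit in each, and 5 with no minimum of UMIs. In Xist macrophages Igf1 (ratio 1.65), Igfbp4 (1.58) and Igfbp7 (1.64, from 2 WT UMIs) were past it. The 1 endothelial member became 0 when cells of more than 1 rule were counted in each class, with thresholds scaled to 5000 UMIs, with thinned cells, with the mean of per-cell CPM and, chosen after seeing the data, with cells of the fibroblast and endothelium rules counted as endothelium. It became 2 in Y cells, without the 10 cells of most UMIs and with a minimum of 50 UMIs, and 5 with no minimum. The 0 members past 2-fold between the fibroblast types became 1 with a mitochondrial limit of 5%, scaled thresholds, the median of gene ratios set to 1, Xist cells, without the 10 cells of most UMIs and with a lead of 3 UMIs. The log2 ratio of Igfbp7 in endothelium turned from 0.67 to -0.20 with cells counted in each class and to -0.23 with the added alternative. The WT log2 ratio of Igfbp6 between the fibroblast types turned from 2.21 to -0.36 in Y cells. The cause was not tested. The log2 ratio of Igf1 lay between 0.60 and 1.11 in macrophages and between -0.66 and 0.045 in fibroblasts. Leaving out 10 cells takes a larger part of the smaller WT classes. Depth limits Igf2, Igfbp2 and Igfbp6, and the 29 WT endothelial cells limit every endothelial ratio. No paired analysis was possible because each genotype had 1 library.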
